A study of Mus musculus with 4 samples.

Results

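Fc receptors bind the constant region of antibodies, and 6 of their genes were followed here in mouse epididymal adipose tissue: Fcgr1, Fcgr3, Fcgr4, Fcgr2b, Fcer1g and Fcgrt. They were taken by symbol from the 24421 genes of the deposited matrices, and all 6 were among the 14106 genes tested. Poly(A) RNA was sequenced from 2 libraries of each of 2 groups of wild-type (WT) male C57BL/6J mice. The control group (Ctrl) received a high-fat diet (HFD) without interruption from an age of 10 weeks for 14 weeks. The weight-cycling group (WC1) started HFD at 8 weeks of age and stayed on it for 8 weeks, changed to a standard diet (SD) for 2 weeks to lose weight, and returned to HFD for 6 weeks. The total time on HFD (14 weeks) and the age at the end (24 weeks) were the same in both groups, so the comparison sets fat tissue after an interrupted HFD against fat tissue after an uninterrupted one, without a lean group. The labels do not say whether a library is a mouse or a pool of mice, so p-values measure only the spread between these libraries.

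The libraries held between 61465029 and 90965297 reads, and each Fc receptor value rested on 953 reads or more. The adipocyte markers Adipoq, Plin1 and Lep, which fit the tissue label, were at 266 CPM or more in all 4 libraries. CPM is a read count divided by a library size that the authors had rescaled, and TPM corrects for transcript length and scales each library to a fixed sum. CPM was used to compare groups, and TPM to compare genes.

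The activating receptors for IgG, encoded by Fcgr1, Fcgr3 and Fcgr4, let macrophages and other myeloid cells take up and respond to antibody-coated particles. They carry no signalling motif of their own and depend on the gamma chain encoded by Fcer1g, whose activation motif (ITAM) recruits the kinase Syk. Fcgr2b, the inhibitory receptor, carries an opposing motif (ITIM) that recruits phosphatases, and Fcgrt, the neonatal receptor FcRn, works inside cells, where it returns IgG and albumin to the circulation.

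Of the 6 genes, 4 lie near each other on chromosome 1. In the mm10 genome (GRCm38, GENCODE M21), Fcgr2b (chr1:170958617-170976547, minus strand), Fcgr4 (chr1:171018920-171029761, plus strand), Fcgr3 (chr1:171051174-171064935, minus strand) and Fcer1g (chr1:171229572-171234365, minus strand) span 276 kb. Fcgr1 (chr3:96282909-96293969) and Fcgrt (chr7:45092990-45103851) are on the minus strand of chromosomes 3 and 7. Fcgr3 and Fcgr2b are close copies in part: of the 1627 windows of 50 bases in Fcgr3 transcripts, 166 (10.2%) also occur in Fcgr2b, and reads from these windows cannot be assigned to either gene with certainty. An antisense gene overlaps Fcgr2b (Gm38204) and another overlaps Fcgrt (Gm45669), and the sources used here do not state whether counting used strand.

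The 120 bases before the RefSeq start (GRCm38.p6) are printed for the 3 activating receptors and the gamma chain, since these genes work as complexes yet differ in the letters known to be read by PU.1, the myeloid transcription factor encoded by Spi1. Each is written 5′ to 3′ on the strand of its gene and ends at the base before the start. Capitals mark GAGGAA, called the core here and the only form searched, always as its reverse complement TTCCTC.
Fcgr1 (chr3:96293970-96294089, minus strand): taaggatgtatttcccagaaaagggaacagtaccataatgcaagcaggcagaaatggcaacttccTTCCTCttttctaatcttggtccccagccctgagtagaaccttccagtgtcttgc
Fcgr3 (chr1:171059404-171059523, minus strand, upstream start): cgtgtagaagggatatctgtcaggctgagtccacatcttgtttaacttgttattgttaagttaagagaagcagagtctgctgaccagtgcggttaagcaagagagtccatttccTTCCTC
Fcgr4 (chr1:171018806-171018925, plus strand): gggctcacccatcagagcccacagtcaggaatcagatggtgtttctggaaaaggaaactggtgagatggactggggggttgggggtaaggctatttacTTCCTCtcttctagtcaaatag
Fcer1g (chr1:171234350-171234469, minus strand): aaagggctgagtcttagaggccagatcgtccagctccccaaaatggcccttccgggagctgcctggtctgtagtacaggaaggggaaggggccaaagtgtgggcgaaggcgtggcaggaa
The core begins 55 bases before the start in Fcgr1, 6 in Fcgr3 and 22 in Fcgr4. Fcgr3 has another RefSeq start just downstream, and the core begins 15 bases before that start. Both of these starts lie inside the GENCODE gene body of Fcgr3 given above, away from its 5′ end. Within 250 bases the core is found on either strand in 3 of the 6 genes (Fcgr1, Fcgr3 and Fcgr4). It is found in 23.25% of the 32851 RefSeq promoters of that length, which are counted by start and not by gene. Fcer1g, Fcgr2b and Fcgrt do not have GAGGAA in this window. Shorter forms were not searched, such as GGAA, which the printed Fcer1g stretch does hold.

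Of the 6 Fc receptor genes, 3 were significantly lower in WC1 than in Ctrl: Fcer1g, Fcgr3 and Fcgr2b. Fcgrt, Fcgr4 and Fcgr1 did not pass the test. Lower calls made up 7.71% of all genes tested (limma, Benjamini-Hochberg adjusted p under 0.05). None of the 6 was called higher by limma, edgeR or DESeq2 (0 also at an unadjusted p under 0.05), and 5 were lower at that unadjusted level, as were 18.9% of all genes. The median log2 fold change of the 6 genes was -0.62, beside -0.02 for all genes tested. In 5 of the 6, both WC1 libraries lay below both Ctrl libraries, as did 36.6% of all genes tested, and the same 5 were separated in this way by TPM, where 21.7% of all genes were. In bulk tissue, fewer cells of a type and less RNA per cell cannot be told apart.

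**Figure D1:**
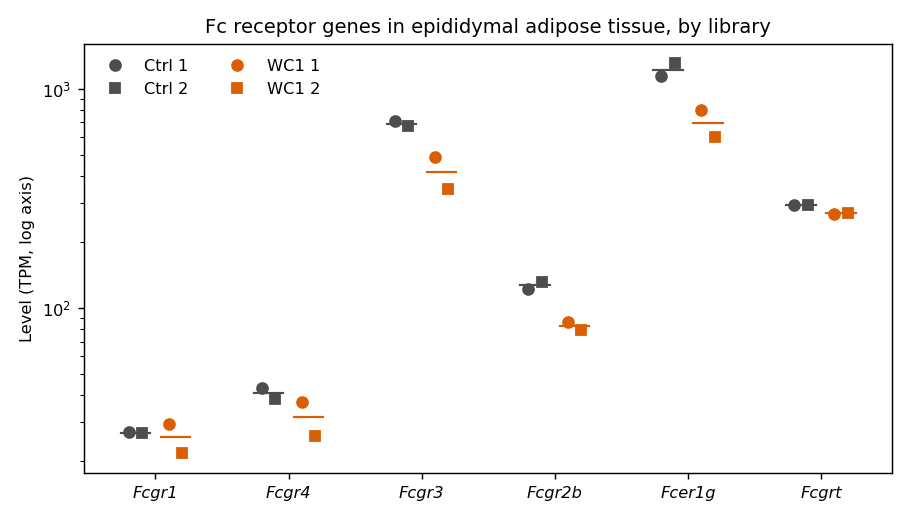
Level of each Fc receptor gene in TPM (log axis) in the 4 libraries, with Ctrl in grey and WC1 in orange, circles for library 1, squares for library 2 and lines at group means (n = 2). WC1 points lie below both Ctrl points in every gene except Fcgr1, where WC1 1 is the highest of the 4.

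Among the activating receptors, Fcgr3, the low-affinity receptor for IgG complexes, carried most of the transcript by TPM. Fcgr3 stood at 501 and 473 CPM in Ctrl 1 and Ctrl 2 and at 316 and 219 CPM in WC1 1 and WC1 2. Both WC1 libraries were below both Ctrl libraries, with WC1 2 the lowest. Its mean fell from 487 ± 20.3 to 267 ± 68.7 CPM (SD, n = 2), which is 45.1% lower, and the test gave -0.89 ± 0.19 (log2 fold change ± SE, limma adjusted p = 0.0378). On TPM values the change was -0.75 and the limma adjusted p was 0.0501.

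Fcgr4, an activating receptor of intermediate affinity found on monocytes, macrophages and neutrophils, was at 28.3 and 25.0 CPM in Ctrl, compared to 22.4 and 15.1 CPM in WC1. The groups did not overlap, but WC1 1 came close to Ctrl 2. The log2 fold change of -0.51 ± 0.19 did not pass the test (limma adjusted p = 0.129), and it was -0.24 without WC1 2. Fcgr4 was called lower without WC1 1 (-0.77, limma adjusted p = 0.00429) and with a replicate block (limma adjusted p = 0.0431).

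Fcgr1, the high-affinity IgG receptor, was at 36.6 and 36.2 CPM in Ctrl, compared to 36.8 and 26.1 CPM in WC1. WC1 1 was level with the Ctrl libraries and WC1 2 alone was lower, so the groups overlapped. The log2 fold change was -0.22 ± 0.17 (limma adjusted p = 0.374), and without WC1 2 it was 0.02. Fcgr1 was called lower without WC1 1 (-0.47, limma adjusted p = 0.00853).

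Summed over Fcgr1, Fcgr3 and Fcgr4, the activating receptors reached 778 and 740 TPM in Ctrl, compared to 553 and 395 TPM in WC1. The make-up of this sum differed between the groups without overlap. Fcgr3 provided 91.0% and 91.1% of it in Ctrl and 87.9% in each WC1 library. Fcgr1 provided 3.47% and 3.65% in Ctrl against 5.36% and 5.49% in WC1, and Fcgr4 provided 5.56% and 5.21% in Ctrl against 6.75% and 6.59% in WC1. The log2 ratio of Fcgr1 to Fcgr3 in TPM was 0.66 higher in WC1, and that of Fcgr4 to Fcgr3 was 0.36 higher. For each ratio the exact two-sided permutation p was 0.333, the smallest that 2 libraries against 2 allow, so that this test cannot reach 0.05.

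The inhibitory receptor Fcgr2b, which is expressed by macrophages and B cells, was at 90.5 and 96.5 CPM in Ctrl, compared to 58.9 and 52.5 CPM in WC1. The libraries of each group lay close together and the groups were well apart. Its mean fell from 93.5 ± 4.22 to 55.7 ± 4.52 CPM (SD, n = 2), a decrease of 40.4%, and the test gave -0.74 ± 0.09 (log2 fold change ± SE, limma adjusted p = 0.0157). This was the smallest adjusted p among the 6 genes.

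Activating and inhibitory receptors are often weighed as a ratio. Activating over inhibitory transcript, (Fcgr1 + Fcgr3 + Fcgr4) over Fcgr2b in TPM, was 6.37 and 5.63 in Ctrl against 6.40 and 4.97 in WC1. The ratio was thus highest in one WC1 library and lowest in the other, and the groups overlapped. The log2 ratio differed by -0.09 between the groups (exact two-sided permutation p = 1), within the spread between libraries (SD 0.13 in Ctrl and 0.26 in WC1, n = 2).

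**Figure D2:**
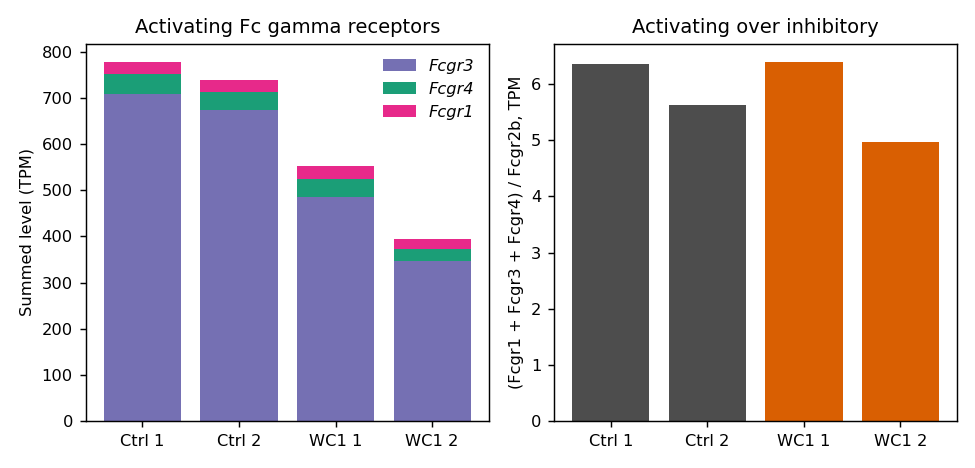
Left, summed TPM of Fcgr3, Fcgr4 and Fcgr1 stacked for each library, and right, that sum over Fcgr2b (both in TPM, axes from 0). The sum is lower in both WC1 libraries (553 and 395 against 778 and 740 TPM), whereas the ratio to Fcgr2b ranges from 4.97 to 6.40 with no separation of the groups.

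Fcer1g, the shared gamma chain of the activating receptors and of the mast cell IgE receptor, had the highest level of the 6 genes by TPM. Fcer1g stood at 391 and 443 CPM in Ctrl, compared to 252 and 184 CPM in WC1. Both WC1 libraries were far below both Ctrl libraries. Its mean fell from 417 ± 37.3 to 218 ± 47.6 CPM (SD, n = 2), a decrease of 47.7%, and the test gave -0.95 ± 0.17 (log2 fold change ± SE, limma adjusted p = 0.0282). Fcer1g transcript per activating receptor transcript in TPM was 1.46 and 1.76 in Ctrl against 1.44 and 1.53 in WC1, which overlapped (log2 difference -0.11, exact two-sided permutation p = 0.667). Tyrobp, the other main ITAM chain of myeloid cells, was at 778 and 701 CPM in Ctrl, compared to 560 and 341 CPM in WC1 (log2 fold change -0.76 ± 0.25, limma adjusted p = 0.0929). DESeq2 called Tyrobp lower (DESeq2 adjusted p = 0.00865), as did limma with a replicate block (adjusted p = 0.0357), without WC1 1 (-1.11) and without WC1 2 (-0.40).

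Fcgrt differed little between the libraries of a group, at 268 and 265 CPM in Ctrl, compared to 224 and 219 CPM in WC1. The groups did not overlap, although the gap was small. The mean was 267 ± 2.15 CPM in Ctrl and 222 ± 3.80 CPM in WC1 (SD, n = 2), a log2 fold change of -0.27 ± 0.07 that missed the threshold (limma adjusted p = 0.0589). DESeq2 on the recovered reads called it lower (DESeq2 adjusted p = 0.0220) and edgeR did not (edgeR adjusted p = 0.0767). Its TPM values were 295 and 294 in Ctrl against 269 and 271 in WC1, with a log2 change of -0.13 (limma adjusted p = 0.212).

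**Figure D3:**
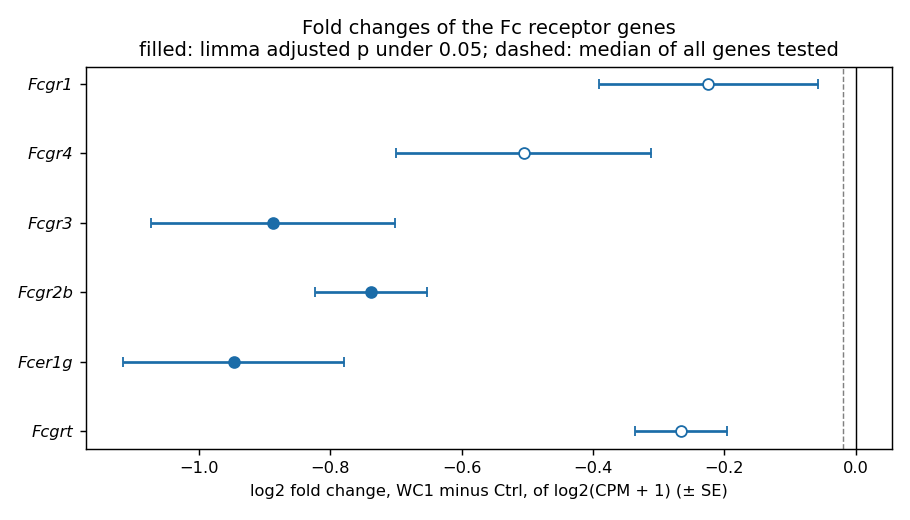
Log2 fold change of log2(CPM + 1), WC1 minus Ctrl, for each Fc receptor gene, with bars of 1 SE from limma (n = 2 libraries a group), filled points for limma adjusted p under 0.05 and a dashed line at the median of all genes tested (-0.02). Fcer1g (-0.95), Fcgr3 (-0.89) and Fcgr2b (-0.74) are filled, and the other 3 genes lie between -0.51 and -0.22.

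The 3 calls depended on having both Ctrl libraries, as did nearly all calls over all genes tested, including those in the lists below. Without Ctrl 1 the limma adjusted p was 0.137 for Fcgr2b, 0.234 for Fcgr3 and 0.174 for Fcer1g, and without Ctrl 2 it was 0.110, 0.171 and 0.160, so that 0 of the 6 genes were called (3 at an unadjusted p under 0.05 in either case). Over all genes tested, lower calls then made up 0.0284% and 0.0425%. Without WC1 1 all 6 were called lower, beside 19.5% of all genes, and without WC1 2 the same 3 genes were called, beside 8.73%. Counts under other choices of test stood beside other shares of all genes: edgeR called 3 of the 6 lower (7.14% of all genes), DESeq2 4 (12.3%), the TPM values 2 (4.13%, Fcgr2b and Fcer1g), a fit with the replicate number as a block 4 (10.6%) and a fit without the filter on low values 1 (2.93%, Fcgr2b). The direction was lower for all 6 genes in each of these fits, except for Fcgr1 without WC1 2.

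By TPM the genes had the same order in every library, with Fcer1g highest, followed by Fcgr3, Fcgrt, Fcgr2b, Fcgr4 and Fcgr1. Fcer1g ranked between 97 and 249 among the genes tested, at 1135 and 1301 TPM in Ctrl, compared to 797 and 603 TPM in WC1. Fcgr3 was at 708 and 674 TPM in Ctrl, compared to 486 and 348 TPM in WC1. These are levels of the more abundant transcripts of the tissue. Fcgr1, by contrast, was at 27.0 TPM in each Ctrl library and at 29.6 and 21.7 TPM in WC1. Fcgr4 lay just above it, at 43.3 and 38.6 TPM in Ctrl, compared to 37.4 and 26.0 TPM in WC1, and in WC1 the ranges of Fcgr4 and Fcgr1 overlapped. All other neighbours in the order were separated in either group.

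Macrophages carry most of these receptors, and macrophage markers were lower as well. All 13 markers were lower in both WC1 libraries than in both Ctrl libraries, as were 36.6% of all genes tested, 8 of the 13 passed the test (7.71% of all genes were called lower), and their summed level was 13487 and 12430 CPM in Ctrl, compared to 8103 and 5797 CPM in WC1. Among those that fell were the mannose receptor Mrc1 (log2 fold change -0.89, limma adjusted p = 0.0213), C1qa of the complement system (-0.85, limma adjusted p = 0.0279) and Mertk, a receptor for dying cells (-0.60, limma adjusted p = 0.0238). The defining markers Adgre1 (675 and 618 CPM against 522 and 353 CPM) and Csf1r (794 and 736 CPM against 668 and 520 CPM) did not pass the test (limma adjusted p = 0.103 and 0.141). All 8 marker calls were lost without Ctrl 1 or without Ctrl 2, as were nearly all calls over all genes tested. The median log2 fold change of the 13 markers was -0.67, against -0.93 without WC1 1 and -0.44 without WC1 2. By TPM 4 of the 13 were called lower (4.13% of all genes were).

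Each Fc receptor gene was therefore also set against the mean log2(CPM + 1) of the 13 markers in the same library, a level that was 0.72 lower in WC1. On this relative scale Fcgr2b did not separate the groups, with a difference of -0.02 (exact two-sided permutation p = 1). Fcgr3 and Fcer1g were lower in both WC1 libraries, with mean differences of -0.17 and -0.23, whereas Fcgr1, Fcgrt and Fcgr4 were higher in both, with mean differences of 0.50, 0.45 and 0.21. For these 5 genes the exact two-sided permutation p was 0.333, the smallest possible. Against Adgre1, Cd68 and Csf1r alone the differences were -0.34 for Fcgr3, -0.40 for Fcer1g, -0.19 for Fcgr2b, 0.32 for Fcgr1 and 0.28 for Fcgrt, and Fcgr4 no longer separated the groups (0.04).

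**Figure D4:**
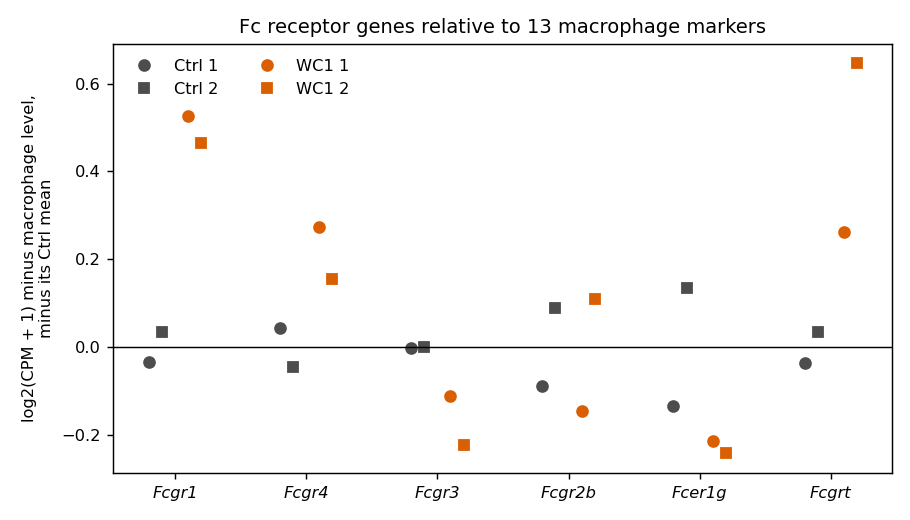
Log2(CPM + 1) of each Fc receptor gene minus the mean of 13 macrophage markers in the same library, shown relative to the Ctrl mean of the gene, with Ctrl in grey and WC1 in orange (circles, library 1; squares, library 2). Both WC1 points lie above Ctrl for Fcgr1, Fcgr4 and Fcgrt, below it for Fcgr3 and Fcer1g, and on either side for Fcgr2b. The marker mean itself was 0.72 lower in WC1, so a gene with an unchanged CPM lies above Ctrl here.

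Markers of other cells that carry these receptors differed in either direction. Mast cell markers, which matter for Fcer1g, were called lower in WC1 for 7 of 8 genes (7.71% of all genes were), with sums of 563 and 623 CPM in Ctrl, compared to 84.5 and 66.6 CPM in WC1. The mast cell proteases Mcpt4 and Tpsb2 fell (log2 fold changes -3.14 and -3.28, limma adjusted p = 0.00443 and 0.00572). B cell markers, which matter for Fcgr2b, summed to 14.4 and 12.1 CPM in Ctrl, compared to 19.6 and 39.6 CPM in WC1, with 1 of 5 tested markers (Cd79b) called higher by limma (10.2% of all genes) and 4 by DESeq2 (15.1%). The B cell median of 1.34 was 0.55 without WC1 2 and 2.16 without WC1 1. Neutrophil markers summed to 8.41 and 5.92 CPM in Ctrl, compared to 12.9 and 19.2 CPM in WC1. S100a8 made up most of these sums (6.93 and 4.70 CPM in Ctrl, 12.4 and 18.7 CPM in WC1) and was the single one of them tested (log2 fold change 1.27 ± 0.25, limma adjusted p = 0.0338). The others were at under 1 CPM, with S100a9 (0.658 and 0.356 CPM against 0.0983 and 0.159 CPM), Cxcr2 and Retnlg below both Ctrl libraries in both WC1 libraries, and Ngp at 0 in all 4. The 6 NK cell markers summed to between 4.47 and 5.45 CPM in all libraries, and limma, edgeR and DESeq2 each called 0 of them (2 at an unadjusted p under 0.05 by limma). Among 4 monocyte markers, Ccr2 was called higher (log2 fold change 0.49) and Plac8 lower (-0.77), and among 6 dendritic cell markers Ccr7 (-1.06) and Flt3 (-0.59) were called lower and Zbtb46 (0.61) higher. The Flt3 call was lost with edgeR, by TPM and without the filter, that of Zbtb46 with quantile scaling, without the filter and without WC1 2, that of Plac8 without the filter and without WC1 2, and those of Ccr7 and S100a8 without the filter. Without Ctrl 1 or without Ctrl 2, every call in the mast cell, B cell, neutrophil, monocyte and dendritic cell lists was lost, as were nearly all calls over all genes tested.

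Endothelial cells also express Fcgrt. Endothelial markers were above both Ctrl libraries in both WC1 libraries for all 7 genes (as were 32.7% of all genes tested), 5 of them called higher (10.2% of all genes were), and summed to 421 and 464 CPM in Ctrl, compared to 820 and 1050 CPM in WC1. Adipocyte markers summed to 10227 and 11512 CPM in Ctrl, compared to 18336 and 23512 CPM in WC1, with 5 of 8 called higher. Adipoq, which encodes adiponectin, rose (log2 fold change 1.23, limma adjusted p = 0.0266). These marker calls were lost without Ctrl 1 or without Ctrl 2, and the part of these cells in the Fc receptor levels was not tested.

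Of 14 other Fc receptor genes, 7 were tested, and 2 were called lower (7.71% of all genes were). These were the remaining chains of the high-affinity IgE receptor, which share Fcer1g. Both also count among the 7 mast cell markers called lower above. Fcer1a, the chain that binds IgE, was at 12.3 and 11.9 CPM in Ctrl, compared to 1.18 and 0.890 CPM in WC1. Its log2 fold change was -2.69 ± 0.13 (limma adjusted p = 0.00404). Ms4a2, the beta chain, was at 4.34 and 3.48 CPM in Ctrl, compared to 0.606 and 0.524 CPM in WC1. Its log2 fold change was -1.64 ± 0.14 (limma adjusted p = 0.0115). At these low levels both values depended on the pseudocount of 1, and with a pseudocount of 2 they were -2.22 for Fcer1a and -1.20 for Ms4a2, against -3.53 and -2.77 by edgeR and DESeq2 on reads. Both WC1 libraries were below 2 CPM for each gene. Fcmr, the receptor for IgM, was at 0.263 and 0 CPM in Ctrl, compared to 0.656 and 2.91 CPM in WC1, and Fcer2a, the low-affinity IgE receptor of B cells, which was not tested, was at 0.205 and 0.345 CPM in Ctrl, compared to 0.361 and 3.08 CPM in WC1. Both were highest in WC1 2. Fcmr did not pass the test (limma adjusted p = 0.114), except without WC1 1. The list median was -0.06 by CPM, -0.31 without WC1 2 and 0.07 by TPM, so its sign depends on the scaling, and both calls were lost without Ctrl 1 or without Ctrl 2.

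Besides Fc receptors, several C-type lectins that sense microbes and dead cells use Fcer1g as their signalling chain, as do a few other receptors, and 3 of the 6 tested genes of this list fell (7.71% of all genes were called lower), all of them lectins. Clec4d was at 282 and 213 CPM in Ctrl, compared to 17.9 and 10.5 CPM in WC1 (log2 fold change -4.07 ± 0.27, limma adjusted p = 0.00758). Clec4n, which encodes Dectin-2, was at 22.0 and 19.2 CPM in Ctrl, compared to 1.02 and 1.43 CPM in WC1 (-3.28 ± 0.14, limma adjusted p = 0.00402). Clec4e, which encodes Mincle, was at 3.90 and 4.33 CPM in Ctrl, compared to 0.869 and 0.572 CPM in WC1 (-1.58 ± 0.14, limma adjusted p = 0.0123). The fold changes of the lower genes depended on the scale, with Clec4e between -2.50 by DESeq2 on reads and -1.17 with a pseudocount of 2, and Clec4n between -4.05 and -2.81. For these 3 lectins the groups were far apart, and the list median was -1.14. Clec4b1, of the same family, was higher in both WC1 libraries, at 12.2 and 13.1 CPM in Ctrl, compared to 20.3 and 15.2 CPM in WC1, without passing the test (limma adjusted p = 0.104). The 3 calls were lost without Ctrl 1 or without Ctrl 2.

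Of 8 other adaptor chains, the ITAM chains and Hcst, which carries another motif, most serve lymphocytes. Cd247 (log2 fold change 0.98, limma adjusted p = 0.0309) and Cd79b (0.95, limma adjusted p = 0.0486) were called higher (10.2% of all genes were), both at under 6 CPM in every library. Both calls were lost without Ctrl 1 or without Ctrl 2, and without the filter, and that of Cd79b also with a pseudocount of 2 and with median-of-ratios or quantile scaling. The list median was 0.04, but 0.33 without Ctrl 1, -0.24 without Ctrl 2 and -0.12 without WC1 2, so its sign turned with 1 library.

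Downstream of the activating receptors, 4 of 21 kinases and adaptors were called lower (7.71% of all genes were), with a list median of -0.37 that was -0.21 without WC1 2. DESeq2 called 11 of the 21 lower, beside 12.3% of all genes. The Src-family kinase Fgr was at 29.1 and 26.6 CPM in Ctrl, compared to 10.7 and 11.4 CPM in WC1 (log2 fold change -1.26 ± 0.09, limma adjusted p = 0.00878). The adaptor Lcp2 and the lipid kinase subunit Pik3cd fell (-0.42 each, limma adjusted p = 0.0278 and 0.0365), as did Lyn, also of the Src family (-0.37, limma adjusted p = 0.0385). Syk, the kinase that binds the Fcer1g motif, was at 382 and 386 CPM in Ctrl, compared to 410 and 292 CPM in WC1, which overlapped (-0.15 ± 0.17, limma adjusted p = 0.559). By TPM 1 gene of this list was called lower (4.13% of all genes were), and the list median was -0.48 without WC1 1. The 4 calls were lost without Ctrl 1 or without Ctrl 2, as were nearly all calls over all genes tested. That of Pik3cd was also lost without the filter.

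Genes of the actin machinery that closes a phagocytic cup were below both Ctrl libraries in 19 of 20 cases by CPM (36.6% of all genes were) and in 13 of 20 by TPM (21.7% of all genes), where 1 gene was above both. Of the 20, 5 were called lower (7.71% of all genes) and 11 by DESeq2 (12.3%), with a list median of -0.37 that was -0.21 without WC1 2. Rac2, the GTPase of blood cells that drives this actin assembly, was at 213 and 204 CPM in Ctrl, compared to 129 and 90.5 CPM in WC1 (log2 fold change -0.94 ± 0.17, limma adjusted p = 0.0300). Arpc3, a subunit of the actin-branching complex, and Elmo1, which helps to activate Rac proteins, fell as well (-0.52 and -0.42, limma adjusted p = 0.0375 and 0.0311). By TPM 1 gene was called lower (4.13% of all genes were), and the list median was -0.50 without WC1 1. The 5 calls were lost without Ctrl 1 or without Ctrl 2, as were nearly all calls over all genes tested. Those of Rac2, Arpc3 and Elmo1 were also lost without the filter.

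The inhibitory side, the phosphatases, adaptors and other ITIM receptors that act as Fcgr2b does, had 6 of 18 tested genes called lower (7.71% of all genes) and 11 by DESeq2 (12.3%), and a list median of -0.48 that was -0.31 without WC1 2. Lilrb4a, an ITIM receptor of myeloid cells, was at 736 and 667 CPM in Ctrl, compared to 266 and 151 CPM in WC1 (log2 fold change -1.80 ± 0.27, limma adjusted p = 0.0224). Siglece, an ITIM receptor for sialic acid, fell (-0.70, limma adjusted p = 0.0252), and the adaptor Dok3 fell (-0.88, limma adjusted p = 0.0171). Inpp5d, the lipid phosphatase recruited by Fcgr2b, was at 137 and 138 CPM in Ctrl, compared to 96.5 and 78.2 CPM in WC1 (-0.65 ± 0.11, limma adjusted p = 0.0271). Ptpn6, a tyrosine phosphatase, fell (-0.49, limma adjusted p = 0.0454). Of this list 14 genes were called lower without WC1 1 (19.5% of all genes) and 10 without WC1 2 (8.73%), and the 6 calls were lost without Ctrl 1 or without Ctrl 2.

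**Figure D5:**
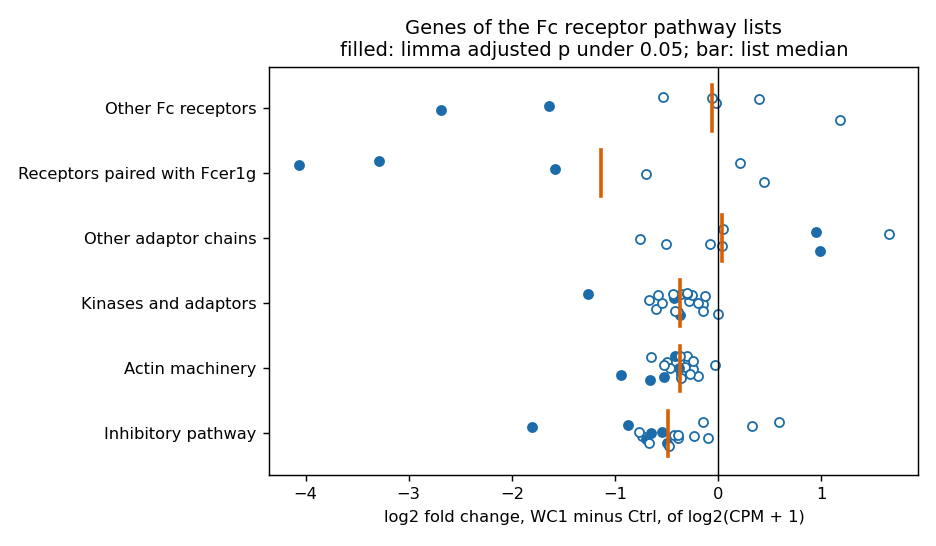
Log2 fold change (WC1 minus Ctrl, log2(CPM + 1)) of each tested gene in 6 lists around the Fc receptors, with filled circles for limma adjusted p under 0.05 and an orange bar at the list median. Kinases, actin machinery and inhibitory genes lie mostly below 0 (medians -0.37, -0.37 and -0.48). The lowest points are Clec4d (-4.07) and Clec4n (-3.28), lectins that pair with Fcer1g.

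Among 11 tested regulators of Fc receptor transcription, 2 were called lower (7.71% of all genes were), Il4ra and Il10, with a list median of -0.40 that was -0.11 without Ctrl 1 and -0.08 without WC1 2. Il4ra, the receptor of interleukin 4, whose signal raises Fcgr2b, was at 107 and 119 CPM in Ctrl, compared to 71.6 and 66.4 CPM in WC1 (log2 fold change -0.71 ± 0.08, limma adjusted p = 0.0164). Il10 fell (-0.74, limma adjusted p = 0.0267), at under 3 CPM in every library. Spi1, which encodes PU.1, was at 222 and 225 CPM in Ctrl, compared to 177 and 121 CPM in WC1, apart but short of the threshold (-0.61 ± 0.18, limma adjusted p = 0.0798). Both calls were lost without Ctrl 1 or without Ctrl 2, as were nearly all calls over all genes tested. Without WC1 1 the list median was -0.55.

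For the ligands and partners, no gene was called by limma with all 4 libraries. Immunoglobulin genes were not analysed here. Jchain, which joins antibodies into polymers and marks plasma cells, was at 6.38 and 6.92 CPM in Ctrl, compared to 7.80 and 40.0 CPM in WC1, so that WC1 2 alone was high (limma adjusted p = 0.240). The soluble pattern receptor Ptx3 was at 8.39 and 10.2 CPM in Ctrl, compared to 8.11 and 6.50 CPM in WC1 (limma adjusted p = 0.204). The 2 ligand genes and the 3 tested plasma cell markers had 0 calls by limma, edgeR and DESeq2 (0 at an unadjusted p under 0.05). B2m, the partner chain of Fcgrt, was at 1928 and 2193 CPM in Ctrl, compared to 2571 and 2805 CPM in WC1. Its WC1 libraries were both above Ctrl, in the opposite direction to Fcgrt, and it was called higher by DESeq2 but not by limma with all 4 libraries (0.38 ± 0.17, limma adjusted p = 0.165). Without WC1 1, limma called B2m and the plasma cell markers Jchain and Mzb1 higher and Sdc1 lower. Alb, which encodes albumin, the other cargo of Fcgrt, was at 4.36 and 16.2 CPM in Ctrl, compared to 2.82 and 8.13 CPM in WC1, which overlapped (limma adjusted p = 0.486), and it was called lower with a replicate block.

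The genes with the profile nearest to each Fc receptor gene over the 4 libraries were found among 10791 genes as the smallest root mean square difference of centred log2(CPM + 1). With 4 libraries that share the group difference, many genes are near by this measure. For Fcgr3 they were Cd63 (903 and 858 CPM in Ctrl, 567 and 393 CPM in WC1), Cd53 and Ctsd, with 115 genes within a difference of 0.1. For Fcgr2b they were Tgfbi (205 and 216 CPM, then 131 and 118 CPM), Il1r1 and Rnase4, with 130 genes within that distance. Fcer1g had the fewest such genes, 33, led by Pira1 (16.8 and 18.5 CPM, then 10.2 and 6.93 CPM), Fbln7 and Cnrip1. For Fcgr4 the nearest of 269 were Lonrf3, Ctsl and Gcnt1, for Fcgr1 the nearest of 522 were Fstl1, Thbs2 and Heatr5a, and for Fcgrt the nearest of 2760 were Dock11, Tmem160 and Zmat2.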

How the data were processed

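Poly(A) RNA of epididymal adipose tissue was sequenced from directional libraries, 2 Ctrl and 2 WC1, grouped by their titles. The submitters' processing notes name fastp, HISAT2, StringTie and the mm10 genome, without versions or roles, and the sources used here give no read counter or annotation. The authors deposited a signal matrix named CPM, reads divided by a rescaled library size, so that columns summed to between 97.6% and 105% of the plain total. Each value was a whole number of reads (100% of values, within 0.01 read), and these reads came to 71658062 and 90965297 in Ctrl against 61655738 and 61465029 in WC1. At these totals 3 reads equal 0.0345 to 0.0492 CPM, for counting error only. The authors also deposited TPM, which corrects for transcript length.

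A gene entered the test when 2 or more libraries held 0.5 CPM or more of it (14106 kept, 10315 removed). WC1 was compared to Ctrl on log2(CPM + 1), a scale that understates the change of low genes, with limma 3.58.1 in R 4.3.3 (trended moderated variance, two-sided, Benjamini-Hochberg adjustment over all genes tested, threshold 0.05). Fold changes are given with SE and means with SD of 2 libraries. Ratios per library were compared with an exact permutation test, whose smallest p is 0.333. Alternatives were other pseudocounts, filters and scalings, TPM, edgeR 4.0.16 and DESeq2 1.42.0 on the recovered reads, a replicate block and leaving out each library. With 1 library left in a group, its variance is taken from the other group. Without a Ctrl library nearly all calls over all genes tested were lost, so a lost call there does not set a gene apart. Equal library numbers were not taken as pairs, since no label says that they mark a shared mouse, litter or day.

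Genes named are the 6 Fc receptor genes, the 3 tested members with the smallest p in each gene or marker list (a regulator among them is not reported here), and the 3 genes nearest in profile to each Fc receptor gene (mean of at least 5 CPM). Adgre1, Cd68, Csf1r, S100a9, Cxcr2, Retnlg, Ngp, Fcer2a, Hcst, Clec4b1, Lyn, Syk, Inpp5d, Ptpn6, Spi1, Ptpn11 and C5ar1 were named after their values were seen. The Fc receptor genes and the lists were chosen with earlier results of these data known. Promoter sequences are from RefSeq (GRCm38.p6), where all 6 genes matched, and positions from GENCODE M21. Scripts were tested on simulated data.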

Additional observations from a re-analysis of the deposited data

How the results depend on the processing

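The 6 Fc receptor genes gave 84 values under the alternatives, of which 69 kept their direction and side of the threshold, 9 lost and 5 gained a call, and 1 was reversed. Of the 9 lost calls, 6 came from leaving out a Ctrl library. Without the filter on low values 1 of the 6 genes was called lower (Fcgr2b), and leaving out each library gave between 0 and 6. The number of genes higher in WC1 was 1443 and of genes lower in WC1 1088, against 788 and 532 without the filter, 2054 and 583 by TPM, where the median of all genes moved from -0.02 to 0.10 and that of the 6 genes from -0.62 to -0.49, and 2125 and 1736 by DESeq2. Leaving out each library gave between 2 and 2424 higher and between 4 and 2748 lower. A replicate block gave 1769 higher and 1497 lower and 4 of the 6 Fc receptor genes lower (Fcgr4 in addition, limma adjusted p = 0.0431). Differences of libraries 1 and 2 in Ctrl and WC1 correlated at 0.19 across 14106 genes, and with 2 numbers this pairs nothing. Against 3 macrophage markers the relative differences moved to 0.32 for Fcgr1, -0.34 for Fcgr3 and 0.040 for Fcgr4. Over leaving out each library, the log2 fold change ranged from -0.47 to 0.015 for Fcgr1, from -1.55 to 0.14 for Alb, from -0.20 to 1.62 for the plasma cell marker Mzb1, from -0.45 to 0.18 for Sdc1, another such marker (Sdc1 log2 fold change 0.0061 by TPM), from -0.45 to 0.0095 for Fstl1 and from -0.46 to 0.0029 for Heatr5a. Of 74 named genes, 48 called, 1021 values were computed: 839 kept their call, 136 lost it (96 without a Ctrl library), 39 gained it and 7 were reversed. The causes were not tested. With 2 libraries a group, an exact permutation test cannot go below 0.333.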

Other observations

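C5ar1 and Ptpn11 differed more between the libraries of a group than between the groups, and were picked out after their values were seen. C5ar1, the receptor for the complement fragment that shifts myeloid cells toward activating Fc receptors, was at 330 and 44.3 CPM in Ctrl 1 and Ctrl 2 and at 214 and 17.0 CPM in WC1 1 and WC1 2. Ptpn11, a tyrosine phosphatase of the inhibitory list, was at 151 and 29.1 CPM in Ctrl, compared to 203 and 49.7 CPM in WC1. In both genes library 1 was above library 2 in each group. Neither passed the test between the groups (limma adjusted p = 0.655 for C5ar1 and 0.687 for Ptpn11), and with the replicate number as a block both did (limma adjusted p = 0.0260 and 0.0225).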
